A study of Mus musculus with 22 samples.

Results

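*Gm17821* and *Gm47432* are neighbouring noncoding genes of mouse chromosome 12, and they were chosen by their measured RNA levels, which were higher in oocytes with both RNAi and piRNA pathways mutated (double mutants). They are 2 of the 52636 genes in the table of counts. Their levels were followed through all 22 RNA-seq samples and set beside the only protein-coding gene within 1 Mb, *Mdga2*, and 20 other annotated genes in that window. The choice rests on the paired-end libraries, so the levels by genotype in that run are given as a description without a test. Tests are given for the single-end run, for age and for genes other than the pair.

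All samples were fully-grown, germinal vesicle-intact (GV) oocytes of C57BL/6 females. The single-end run held wild type (n = 3), *Dicer* dMT/WT (n = 1), *Dicer* dMT/dMT (n = 4) and *Dicer* SOM/SOM (n = 3), for which the labels give no age. The dMT allele lacks the MT retrotransposon insertion that drives the oocyte form of Dicer. The SOM allele, made in 1 embryonic stem cell line, encodes HA-tagged full-length Dicer and no oocyte form. In the paired-end run, the 4 double mutants were homozygous for both alleles, *Dicer* SOM/SOM with *Mili* DAH/DAH, and came from animals of 40, 35, 11 and 11 weeks. The 2 RNAi mutants were *Dicer* SOM/SOM with *Mili* DAH/WT (17 and 13 weeks), and the only piRNA mutant was *Dicer* SOM/WT with *Mili* DAH/DAH (16 weeks). The 4 controls were littermates heterozygous at both genes, *Dicer* SOM/WT with *Mili* DAH/WT (36, 38, 10 and 17 weeks). All paired-end groups, the controls included, therefore carry at least 1 DAH and 1 SOM allele. The DAH allele encodes MILI with a changed catalytic residue, so the protein is still made. Samples of 1 group with different ages came from different animals. Nothing in the labels says this of the 2 double mutants of 11 weeks or of the single-end samples. The p-values measure the spread between these samples only.

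In the germline, RNAi and the piRNA pathway use small RNAs to find complementary transcripts. Dicer cuts double-stranded RNA into siRNAs, which guide Argonaute proteins. In mouse oocytes, the double-stranded RNA can come from inverted repeats, from overlapping transcripts of opposite strands, or from a pseudogene transcript that pairs with the mRNA of its parent gene. MILI (encoded by *Piwil2*) is a PIWI protein that binds piRNAs, which are made without Dicer from long single-stranded transcripts of particular loci, known as piRNA clusters. Noncoding genes and processed pseudogenes are thus among the transcripts that either pathway may use as precursor or as target. Small RNAs were not analysed here.

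The single-end libraries held 6468380 to 90713013 counts, the fewest in *Dicer* SOM/SOM replicate 3, and the paired-end libraries 22928936 to 43540806. *Dicer1* checked the labels, since it was at 4.87% of the wild-type mean in *Dicer* SOM/SOM and at 47.9% in *Dicer* dMT/dMT oocytes, which keep residual expression, and at 9.015% of the control mean in double mutants. *Piwil2* does not check the DAH label, because the change is in the protein, and it was at 102% of the control mean in double mutants. All 12 oocyte markers were detected in every group, and their summed level was between 13031 and 16484 CPM (counts scaled to a common library size) over all samples. The 12 granulosa and cumulus markers summed to at most 166 CPM in any sample. In double mutants they summed to 115 to 147 CPM, against 108 to 166 CPM in controls. In that comparison 1 of them was called lower and none higher, where 8.84% of all tested genes were called lower and 12.3% higher. The 9 B cell markers summed to 134 to 216 CPM in double mutants and 174 to 238 CPM in controls. Of these, *Igkc* and *Jchain* had at most 3 counts in every double mutant, and *Cd79a*, *Cd79b*, *Igkc* and *Jchain* in every control. Only 5 could be tested, and 1 was called higher and 1 lower in double mutants against controls, beside the same shares over all genes. The 7 markers of other blood cells were higher in double mutants, at 7.11 to 14.3 CPM in all against 1.57 to 2.63 CPM in controls and 5.64 to 6.31 CPM in RNAi mutants. Of the 3 of these that could be tested, 2 were called higher in double mutants against controls and none against RNAi mutants. Over all tested genes, 12.3% were called higher against controls and only 0.310% against RNAi mutants, so the absence of calls there says little. The hemoglobin genes *Hba-a1* and *Hbb-bs* had at most 3 counts in every double mutant, and *Ptprc* and *Adgre1* had at most 3 in every control. The part of these markers in the results was not tested. The rRNA-like gene *Gm42418* was over 1000 CPM in 6 of the paired-end libraries (double mutants 1 and 3, controls 1 and 4, both RNAi mutants) and under it in the other 5, so the levels of the pair, *Mdga2* and *Dcaf5* are also given within each set.

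*Gm47432* (ENSMUSG00000114010.1, a lincRNA) lies on the plus strand of chromosome 12, at chr12:67651385-67658263 (GRCm38), with 4 exons of 853 bases in all. *Gm17821* (ENSMUSG00000113657.1) lies on the minus strand at chr12:67658527-67669276. It is annotated as a processed pseudogene, with exons of 1097 and 596 bases (1693 bases in all) and an intron of 9057 bases. The genes point towards each other, and 263 bases lie between their 3′ ends. No exon of either overlaps an exon of any other gene in the annotation used for counting. The counting ignored strand, so a read is assigned by its place alone.

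**Figure D1:**
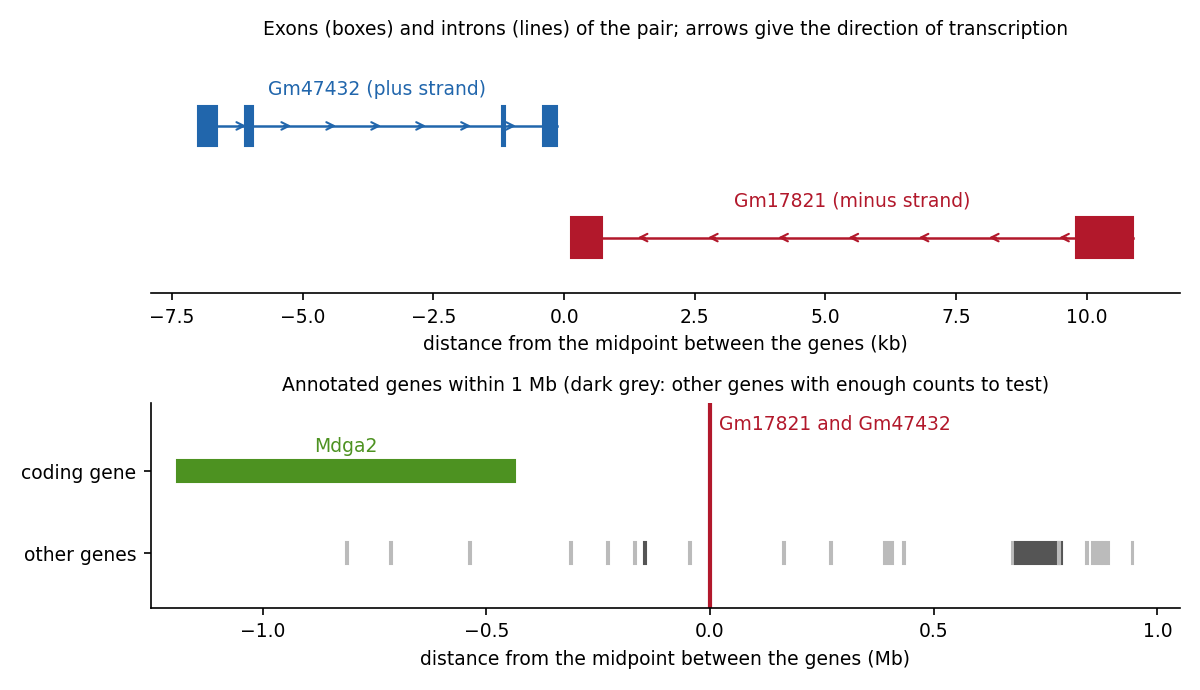
Map of the pair and its surroundings. The upper panel shows exons (boxes) and introns (lines) against the distance in kb from the midpoint between the genes. The lower panel shows the annotated genes within 1 Mb, where *Mdga2* is the only coding gene, and the dark grey boxes are the other genes with enough counts to test.

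The spliced sequence of *Gm17821* matched the mRNA of *Dcaf5*, which encodes a WD40-repeat substrate receptor of a cullin ubiquitin ligase and also lies on chromosome 12. Bases 6 to 1693 of *Gm17821* aligned in the same orientation with bases 1334 to 3040 of the *Dcaf5* mRNA, at 85.9% identity over 1720 columns. This stretch is within the coding part of *Dcaf5* (bases 204 to 3041). No other annotated gene matched *Gm17821*. The stretches below are shown because they are the closest ungapped 100 bases of that match. The first is chr12:67668518-67668617 in exon 1 of *Gm17821*, the second chr12:80339463-80339562 in the coding part of exon 9 of *Dcaf5*, both GRCm38, minus strand, 5′ to 3′. They are identical at 96 bases, and capitals mark the 4 that differ.
Gm17821: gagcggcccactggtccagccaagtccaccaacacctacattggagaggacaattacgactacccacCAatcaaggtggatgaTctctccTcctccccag
Dcaf5: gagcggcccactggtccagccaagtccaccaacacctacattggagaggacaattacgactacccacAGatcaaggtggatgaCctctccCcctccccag

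*Gm47432* also matched *Dcaf5*, in its last exon and in the other orientation. Bases 579 to 852 of *Gm47432* aligned with the opposite strand of bases 4188 to 4451 of *Dcaf5*, in the 3′ UTR, at 85.4% identity over 280 columns. The 30 bases below are shown as an example of that match. They lie in *Gm47432* at chr12:67658082-67658111 (GRCm38, plus strand, exon 4), inside a longer identical run, and are the exact reverse complement of the *Dcaf5* 3′ UTR at chr12:80337199-80337228.
Gm47432: cctatgccagttccagccaagctccagctg

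Read as transcripts, the pair thus holds the sense of the *Dcaf5* coding part in *Gm17821* and an antisense stretch of its 3′ UTR in *Gm47432*. The longest run of identity was 67 bases between *Gm17821* and *Dcaf5* and 49 bases between the reverse complement of *Gm47432* and *Dcaf5*. Of all 21-base words of the *Dcaf5* mRNA, 148 occurred in *Gm17821* and 44 in the reverse complement of *Gm47432*. The members did not share such sequence with each other, because no 21-base word of *Gm17821* occurred in the reverse complement of *Gm47432* and their longest shared run was 10 bases. The first part of *Gm47432* (bases 2 to 376) matched transcripts of 24 other genes at 74.3% to 87.1% identity, 14 in the same and 10 in the opposite orientation. Neither member has a close copy, meaning another transcript with 95% identity or more across 50% of its length or more. The authors divided reads that map to several places, so reads from the longest shared stretches may be divided between *Gm17821* or *Gm47432* and *Dcaf5*.

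Both genes were expressed in control oocytes. In wild type, *Gm17821* was measured at 28.3, 25.5 and 27.7 CPM (mean 27.2 ± 1.49, SD, n = 3). In the heterozygous controls it was at 22.04, 25.3, 34.3 and 38.5 CPM (mean 30.0 ± 7.67, SD, n = 4). *Gm47432* was higher, with 88.6, 73.4 and 72.4 CPM in wild type (mean 78.2 ± 9.10, SD, n = 3). The controls had 55.9, 57.1, 96.1 and 82.7 CPM of *Gm47432* (mean 72.9 ± 19.8, SD, n = 4). Divided by the summed exon length, the control means were 17.7 RPKM for *Gm17821* and 85.5 RPKM for *Gm47432*. On this per-length scale, 82.8% of the 20989 genes tested in the paired-end run were below *Gm17821* and 96.8% were below *Gm47432* in controls.

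In double mutants, *Gm17821* was at 285, 376, 219 and 331 CPM (mean 303 ± 67.0, SD, n = 4), 10.1 times the control mean. Every double mutant was above every other paired-end library, and the lowest was 5.70 times the highest of the controls and RNAi mutants. *Gm47432* was at 345, 451, 309 and 380 CPM in double mutants (mean 371 ± 60.4, SD, n = 4), 5.09 times the control mean. Here also the double mutants stood apart, and the lowest was 3.22 times the highest control. In RPKM, the double mutant means were 179 for *Gm17821* and 435 for *Gm47432*, with 257 and 66 tested genes above them.

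In the RNAi mutants, where the piRNA pathway keeps 1 intact *Mili* allele, *Gm17821* was at 24.8 and 23.9 CPM and *Gm47432* at 64.6 and 67.1 CPM. Both RNAi mutants lay within the range of the controls for either gene. That range includes controls of 36 and 38 weeks, whereas the RNAi mutants were of 17 and 13 weeks. Both lay below the controls of 10 and 17 weeks (34.3 and 38.5 CPM of *Gm17821*, 96.1 and 82.7 CPM of *Gm47432*). With younger animals only, the fitted log2 fold change from controls to RNAi mutants was −0.59 for *Gm17821* and −0.45 for *Gm47432*, without a test. The single piRNA mutant had 72.5 CPM of *Gm17821* and 133 CPM of *Gm47432*. These values were 1.88 and 1.39 times the highest control, and the lowest double mutant was 3.03 and 2.32 times as high as the piRNA mutant. Each gene thus ran in the order RNAi mutant, control, piRNA mutant, double mutant, where RNAi mutants and controls overlapped and the other neighbours did not. The piRNA mutant is 1 library, so its place has no replicate check. In bulk RNA, more cells with a transcript and more of it per cell cannot be told apart.

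**Figure D2:**
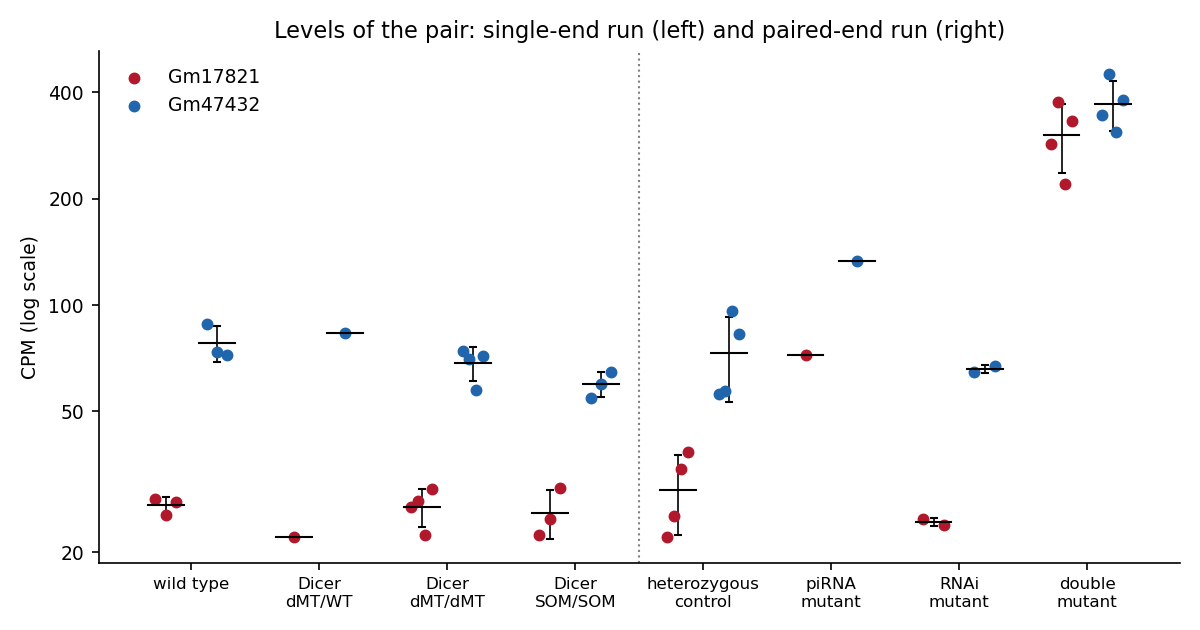
CPM of both genes in every sample by genotype, on a log axis. Points are samples, horizontal lines are means and bars are SD where n is over 1. The double mutants sit between 219 and 451 CPM, above all other paired-end libraries of the same gene, and the single-end genotypes stay between 22.002 and 30.4 CPM for *Gm17821* and between 54.7 and 88.6 CPM for *Gm47432*.

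Fitted with edgeR over the paired-end run, the log2 fold change from RNAi mutants to double mutants was 3.64 for *Gm17821* (standard error 0.28) and 2.49 for *Gm47432* (standard error 0.25). From controls to double mutants it was 3.34 (standard error 0.21) and 2.35 (standard error 0.19), and from controls to RNAi mutants −0.30 (standard error 0.24) and −0.15 (standard error 0.22). These comparisons share groups and chose the genes, so they are given side by side without a test. Of all 20989 tested genes, 150 had a larger rise than *Gm17821* and 299 a larger rise than *Gm47432* from RNAi mutants to double mutants. Among the 15220 genes with a mean of at least 1 CPM in double or RNAi mutants, these numbers were 35 and 70, and the median gene was at −0.01. Over all tested genes, 0.310% were called higher and 0.00476% lower in that comparison at an adjusted p under 0.05, which is 66 genes by edgeR, while DESeq2 called 170.

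The changes in the single mutants did not add up to the change in double mutants. On the log2 CPM scale, *Gm17821* differed from the control mean by −0.26 in RNAi mutants, by 1.31 in the piRNA mutant and by 3.34 in double mutants. The double mutants were therefore 2.30 above the sum of the single changes. For *Gm47432*, the differences were −0.11, 0.91 and 2.37, and the double mutants were 1.57 above the sum. Of the 20989 tested genes, 351 lay farther above the sum of their single changes than *Gm17821* did, and 955 farther than *Gm47432* did. These values rest on 1 piRNA mutant and on the contrast that chose the genes, and they carry no test. The piRNA mutant was also under 1000 CPM of *Gm42418*, and both RNAi mutants were over it. The single mutants were all 13 to 17 weeks old. The control mean includes animals of 36 and 38 weeks, which were lower for both genes than those of 10 and 17 weeks. The sums were not adjusted for age.

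The levels of the pair are given next within each set of paired-end libraries split by *Gm42418*, as a description. Every double mutant lay above every other paired-end library, so no split could have removed the rise, and its presence in both sets tests nothing. In libraries with over 1000 CPM of *Gm42418*, *Gm17821* was at 219 and 285 CPM in double mutants, against 22.04 and 38.5 CPM in controls and 23.9 and 24.8 CPM in RNAi mutants. In libraries under that level, it was at 331 and 376 CPM in double mutants, against 25.3 and 34.3 CPM in controls and 72.5 CPM in the piRNA mutant. The difference of mean log2 CPM between double mutants and controls was 3.10 and 3.58 in these sets for *Gm17821*, and 2.26 and 2.48 for *Gm47432*. The RNAi mutants are all in the first set and the piRNA mutant is in the second, so these genotypes cannot be compared within a set.

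Within a library, *Gm17821* and *Gm47432* did not keep the same proportion. The ratio of their per-length levels was 0.209 ± 0.0246 in controls (SD, n = 4, from 0.180 to 0.235) and 0.194 and 0.180 in RNAi mutants. In double mutants it was 0.416, 0.421, 0.358 and 0.440 (mean 0.409 ± 0.0354, SD, n = 4). The piRNA mutant lay between them at 0.274. All double mutants were above all other libraries of both runs, so the rise was larger in *Gm17821* than in *Gm47432* in each of the 4.

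**Figure D3:**
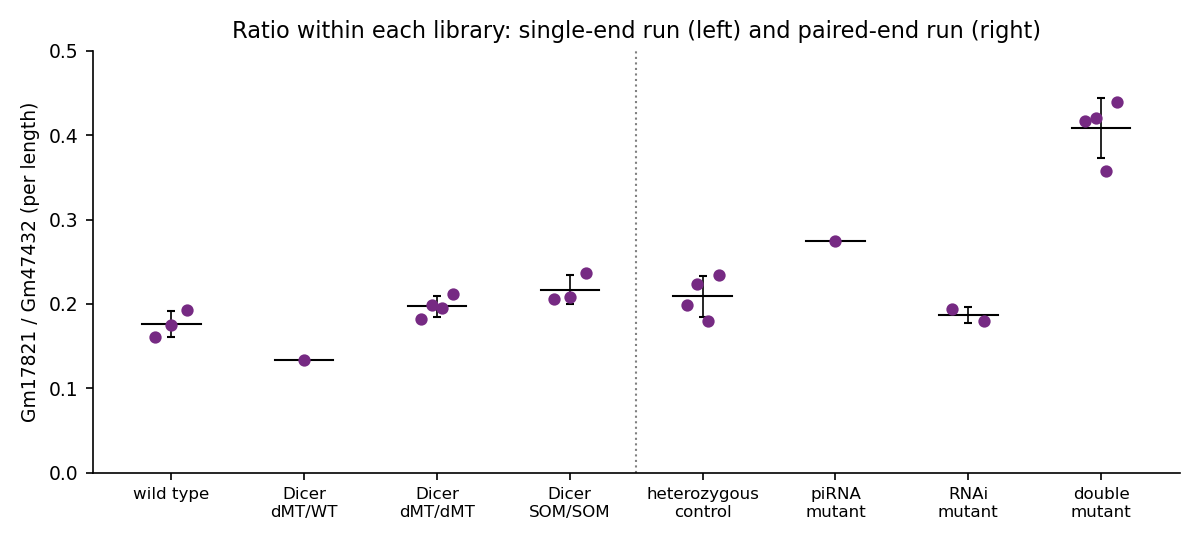
Ratio of *Gm17821* to *Gm47432* in each library, both divided by summed exon length. Points are samples, lines are means and bars are SD where n is over 1. The double mutants sit between 0.358 and 0.440 and every other library between 0.133 and 0.274.

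The single-end run compares oocytes in which *Dicer* alone is mutated with wild type. *Gm17821* was at 26.9, 27.8, 22.4 and 30.2 CPM in *Dicer* dMT/dMT and at 22.3, 24.8 and 30.4 CPM in *Dicer* SOM/SOM, overlapping wild type in both. Its log2 fold change was −0.02 in *Dicer* dMT/dMT (95% interval −0.30 to 0.26) and −0.08 in *Dicer* SOM/SOM (95% interval −0.39 to 0.22). Neither was called by the quasi-likelihood test of edgeR with Benjamini-Hochberg adjusted values (adjusted p = 0.941 and adjusted p = 0.692). The exact permutation tests gave p = 0.857 and p = 0.6, both two-sided. The *Dicer* dMT/WT sample had 22.002 CPM.

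*Gm47432* was lower in *Dicer* SOM/SOM, at 54.7, 60.0 and 64.6 CPM, below all 3 wild-type samples. Its log2 fold change was −0.39 (standard error 0.12, 95% interval −0.66 to −0.12), with adjusted p = 0.0362 by edgeR, where 14.2% of all tested genes were called lower. The exact permutation test gave p = 0.1, the smallest that 3 samples against 3 allow. This call was lost with library totals in place of TMM (adjusted p = 0.0789), in a fit of both groups alone (adjusted p = 0.0736) and with each of 4 samples left out, wild type 1 or 2 or *Dicer* SOM/SOM 1 or 2 (adjusted p = 0.0604 to adjusted p = 0.132). In *Dicer* dMT/dMT, *Gm47432* was at 74.3, 70.6, 57.6 and 71.8 CPM, which overlapped wild type (log2 fold change −0.19, edgeR adjusted p = 0.291). The *Dicer* dMT/WT sample had 83.3 CPM. In the order of group means, neighbouring genotypes of this run overlapped for both genes, except that *Dicer* dMT/WT lay just under *Dicer* SOM/SOM for *Gm17821*.

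Between *Dicer* SOM/SOM and *Dicer* dMT/dMT, the log2 fold change was −0.07 for *Gm17821* (95% interval −0.35 to 0.22) and −0.20 for *Gm47432* (95% interval −0.45 to 0.06). Neither was called by edgeR (adjusted p = 0.823 and adjusted p = 0.344), while 4.03% of the genes were called higher and 3.32% lower. The ratio of the pair was 0.161 to 0.192 in wild type, 0.182 to 0.212 in *Dicer* dMT/dMT and 0.205 to 0.237 in *Dicer* SOM/SOM. The last group did not overlap wild type, but 3 samples against 3 cannot go below p = 0.1 in the exact two-sided permutation test. Over the 11 single-end samples, the log2 CPM of both genes had Pearson's r = 0.346 (permutation p = 0.294) and Spearman's rho = 0.182 (permutation p = 0.594). Without the 2 samples farthest from the median of *Gm17821*, r was 0.527. A relation within this run was not detectable with these samples.

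Age was tested within the paired-end run, where double mutants and controls each had 2 samples of younger and 2 of older age by their labels. The study's methods give a narrower age range for oocyte donors than these labels do, and the labels were used. In double mutants, the older animals (35 and 40 weeks) had 376 and 285 CPM of *Gm17821*, and the younger (both 11 weeks) had 219 and 331 CPM. The log2 difference was 0.26 (95% interval −0.20 to 0.73, edgeR adjusted p = 0.921), and for *Gm47432* it was 0.21 (95% interval −0.18 to 0.60, edgeR adjusted p = 0.926). In controls, both genes were lower in the older animals. *Gm17821* was at 22.04 and 25.3 CPM at 36 and 38 weeks and at 34.3 and 38.5 CPM at 10 and 17 weeks, and *Gm47432* was at 55.9 and 57.1 CPM against 96.1 and 82.7 CPM. The log2 differences were −0.62 and −0.66, and they passed no adjustment over all genes (unadjusted p = 0.0147 and 0.00324 by edgeR, adjusted p = 0.729 and adjusted p = 0.685). The age effect in double mutants minus that in controls was 0.89 for *Gm17821* and 0.87 for *Gm47432* (edgeR, unadjusted p = 0.0134 and 0.00497, adjusted p = 0.749 and adjusted p = 0.639). With younger animals only, the log2 fold change from controls to double mutants was 2.92 for *Gm17821* and 1.95 for *Gm47432*, a smaller rise than over all ages. *Gm42418* was over 1000 CPM in 1 of the 2 samples of each age class in both groups.

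The window around the pair was then examined to see whether other genes rose with it. *Mdga2*, which encodes a GPI-anchored protein of the synapse, starts 429 kb away and was the only coding gene within 1 Mb. It was expressed at a low level, with 2.63, 2.90, 6.22 and 4.31 CPM in controls (mean 4.01 ± 1.64, SD, n = 4). Double mutants had 0.539, 0.994, 1.35 and 1.52 CPM (mean 1.10 ± 0.435, SD, n = 4). RNAi mutants had 0.778 and 1.28 CPM, within the range of the double mutants, and the piRNA mutant had 6.63 CPM, above all controls.

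No rise of *Mdga2* was called in double mutants. From RNAi mutants to double mutants its log2 fold change was 0.07 (95% interval −0.92 to 1.06, edgeR adjusted p = 0.9997). The interval lies below the changes of 3.64 and 2.49 fitted for the pair, which was chosen for its rise, but it includes smaller rises. With an age term, or with younger animals only, the log2 fold change was 0.47 (edgeR adjusted p = 0.999 in both). *Mdga2* was lower in older than in younger animals, by log2 differences of −0.93 in controls and −0.89 in double mutants (edgeR, unadjusted p = 0.0268 and 0.0463, adjusted p = 0.733 and adjusted p = 0.764). Against controls it fell by 1.87 in double mutants (standard error 0.36, edgeR adjusted p = 0.00202), where 8.84% of all tested genes were called lower, and its level in all 4 double mutants lay under that in every control. The two-sided p of an exact permutation test was 0.0286, the smallest that 4 against 4 allow. It fell by 1.94 in RNAi mutants (standard error 0.47, edgeR adjusted p = 0.0166), where 3.64% of genes were called lower and 7.07% higher. The latter call was lost without either RNAi mutant (adjusted p = 0.184 and adjusted p = 0.0753). In double mutants *Mdga2* was thus lower than in controls where the pair was higher, and it was also lower in RNAi mutants, which overlapped controls for the pair. The difference of mean log2 CPM between double mutants and controls was −1.90 in the libraries over 1000 CPM of *Gm42418* and −1.74 in those under it.

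The single-end run gave the same direction for *Mdga2*. Its level was 3.92, 3.18 and 2.54 CPM in wild type, 1.04, 2.19, 1.11 and 1.33 CPM in *Dicer* dMT/dMT, 1.21, 1.995 and 1.01 CPM in *Dicer* SOM/SOM and 3.28 CPM in *Dicer* dMT/WT. Against wild type, it fell by 1.19 on the log2 scale in *Dicer* dMT/dMT (edgeR adjusted p = 0.0189), where 7.30% of the genes were called lower and 8.06% higher. In *Dicer* SOM/SOM it fell by 1.10 (edgeR adjusted p = 0.0288), where 14.2% of the genes were called lower and 14.5% higher. No mutant sample overlapped wild type, but the exact permutation tests gave p = 0.0571 and p = 0.1. Leaving out 1 sample took the *Dicer* dMT/dMT call to between adjusted p = 0.006775 and adjusted p = 0.0814 (lost in 5 of 7 cases) and the *Dicer* SOM/SOM call to between adjusted p = 0.0166 and adjusted p = 0.103 (lost in 4 of 6 cases).

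Of the 20 other annotated genes within 1 Mb, 14 had over 3 counts in no library, and the only one within 100 kb, *Gm26256*, had 0 counts in all 22. The pair therefore stands in a stretch with little other measured RNA. Only 2 of the 20, named after their values were seen, had enough counts to test in the paired-end run. *Rpl17-ps3*, a ribosomal protein pseudogene with 22 close copies that share its reads, was at 5.16 CPM in double mutants, 5.55 in RNAi mutants and 5.65 in controls. Its log2 fold change from RNAi mutants to double mutants was −0.10 (edgeR adjusted p = 0.9997). *Gm47456*, a lincRNA, averaged 0.0846 CPM in double mutants, 0.176 in RNAi mutants and 0.481 in controls, and reached 1.75 CPM in the piRNA mutant. It was not called between double mutants and RNAi mutants (log2 fold change −1.23, adjusted p = 0.9997) or controls (−2.53, adjusted p = 0.173) by edgeR. The remaining 4 detected genes were at most at 0.460 CPM in any library.

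Farther out, 17 coding genes lay within 2 Mb, and 16 were tested. From RNAi mutants to double mutants edgeR called none of the 16 (1 at an unadjusted p under 0.05, and 0 by DESeq2). Their median log2 fold change was −0.04, with a range from −0.82 to 0.73. Over all tested genes, edgeR called only 0.310% higher and 0.00476% lower there, so the absence of calls in so small a set says little. Between double mutants and controls, *Mdga2* was called lower and 3 genes were called higher, against 12.3% called higher over all genes. These 3 genes were named after their values were seen. All 3 lie on the far side of the pair from *Mdga2*, where most tested coding genes of this window lie. The 3 were *Lrr1* and *Klhdc2*, which encode substrate receptors of cullin ubiquitin ligases, and *Nemf*, a factor of ribosome quality control. Their log2 fold changes were 0.56, 0.50 and 0.46 (edgeR adjusted p = 0.0193, adjusted p = 0.00752 and adjusted p = 0.00538). From RNAi mutants to double mutants they were 0.11, −0.17 and −0.16. Of the 48 other noncoding genes within 2 Mb, 12 were tested. From RNAi mutants to double mutants edgeR called none of these 12 (0 at an unadjusted p under 0.05, and 0 by DESeq2), against the same 0.310% and 0.00476% over all genes. Their median log2 fold change was 0.60, with a range from −1.23 to 1.25, against a median of 0.01 over all tested genes. The highest, named after its value was seen, was *Rn7s1*, with means of 1.09 CPM in controls, 0.403 in RNAi mutants and 0.934 in double mutants. Values from 1.08 to 1.25 were held only by *Rn7s1*, *Rn7s2* and the miRNA entries that overlap them (*Gm47287*, *Gm47295*, *Gm47299* and *Gm47305*). Their means were at most 1.09 CPM in any paired-end group. The other tested noncoding genes lay between −1.23 and 0.12. All tested genes of the window had smaller rises from RNAi mutants to double mutants than the 2.49 and 3.64 of the pair. The pair was chosen for that rise, and of all 20989 tested genes only 299 and 150 had larger ones. Most genes anywhere in the genome would therefore lie below the pair, and this does not show that the rise is local.

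**Figure D4:**
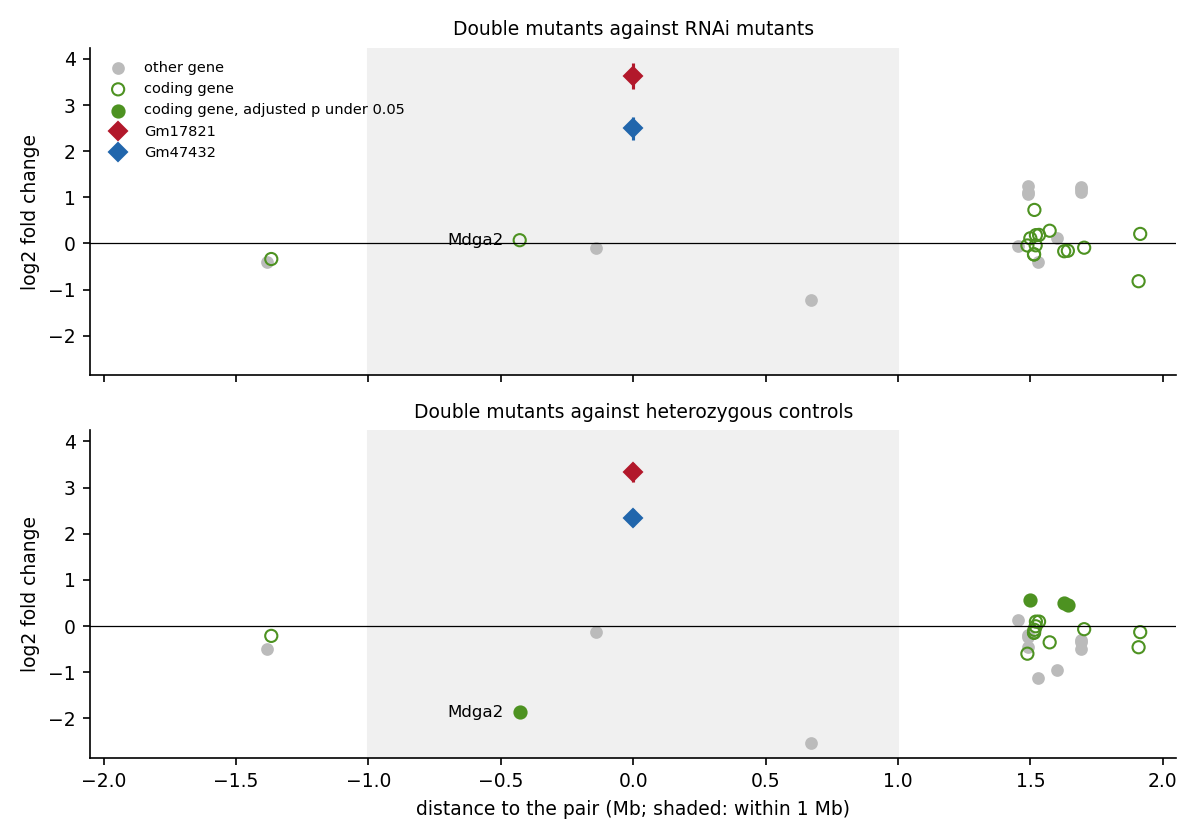
Log2 fold change against distance to the pair (Mb) for every tested gene within 2 Mb, for double mutants against RNAi mutants (upper panel) and against heterozygous controls (lower panel). Diamonds are the pair with standard errors, green circles are coding genes (filled where the adjusted p is under 0.05) and grey points are other genes. The pair stands at 3.64 and 2.49 in the upper panel and *Mdga2* at 0.07.

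*Dcaf5*, chosen for its sequence after the match was found, lies far outside this window and was not called in any of the comparisons. Its level was 233, 214, 213 and 237 CPM in controls, 270, 229, 280 and 223 CPM in double mutants, 250 and 230 CPM in RNAi mutants and 222 CPM in the piRNA mutant. From controls to double mutants its log2 fold change was 0.16 (95% interval −0.08 to 0.40, edgeR adjusted p = 0.355), and the groups overlapped. Within the libraries over 1000 CPM of *Gm42418*, double mutants (270 and 280 CPM) lay above controls (233 and 237 CPM) and RNAi mutants, and within those under it (223 and 229 CPM) they lay above controls (213 and 214 CPM). The differences of mean log2 CPM from controls were 0.23 and 0.08, with 2 libraries a group and no test. From RNAi mutants to double mutants it was 0.06 (95% interval −0.23 to 0.36, edgeR adjusted p = 0.9997). In the single-end run, *Dcaf5* differed from wild type by 0.13 in *Dicer* dMT/dMT (95% interval −0.16 to 0.43, edgeR adjusted p = 0.549). The difference was −0.04 in *Dicer* SOM/SOM (95% interval −0.35 to 0.28, edgeR adjusted p = 0.871). Between *Dicer* SOM/SOM and *Dicer* dMT/dMT it was −0.17 (edgeR adjusted p = 0.488), and between RNAi mutants and controls 0.10 (edgeR adjusted p = 0.739). A change in *Dcaf5* as large as that of *Gm17821* in double mutants lies outside these intervals, and smaller changes up to 0.40 against controls do not.

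Genes of both small RNA pathways were counted from lists of named genes. Of the 23 tested genes of the piRNA pathway list, none was called between double mutants and RNAi mutants by edgeR or DESeq2, and 2 had an unadjusted p under 0.05 by edgeR. Over all genes, edgeR called only 0.310% higher and 0.00476% lower in that comparison. Against controls, 2 were called higher in double mutants and in RNAi mutants, *Spocd1* (log2 fold change 1.36 in double mutants, edgeR adjusted p = 2.89e-04) and *Mael* (0.61, adjusted p = 0.0156), and none lower. Over all genes, 12.3% were called higher in double mutants and 7.07% in RNAi mutants. Both encode proteins of piRNA-directed silencing. Of the 10 genes of the RNAi pathway list, only *Dicer1* was called against controls, and it fell by 3.47 in double mutants. Between double mutants and RNAi mutants none of the 10 was called by edgeR or DESeq2, with the same low shares called over all genes, and 0 had an unadjusted p under 0.05. In *Dicer* SOM/SOM against wild type, 7 genes of the piRNA pathway list were called higher, *Piwil2* among them (log2 fold change 1.25, edgeR adjusted p = 0.00546), and 2 lower, where 14.5% of all genes were called higher and 14.2% lower.

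The genes most like the pair were taken by Pearson's correlation of their log2 CPM with the mean log2 CPM of the pair, as a description. Over the 11 paired-end samples, which share the split between double mutants and the rest, they were the lincRNA *AU020206* of chromosome 7 (r = 0.979), the pseudogenes *Gm49331* (0.978), *Gm49330* (0.9752) and *Gm49328* (0.969) of chromosome 12, and the lincRNA *Gm34068* of chromosome 1 (0.968), among 15845 genes. *AU020206* was at 180 CPM in double mutants, 44.6 in controls, 67.8 in the piRNA mutant and 31.1 in RNAi mutants, the same order as the pair. *Gm49328* was at 14.5 CPM in double mutants, 0.200 in controls, 3.68 in the piRNA mutant and 0.309 in RNAi mutants. Over the 11 single-end samples, the most similar genes were the coding genes *Zdhhc21* (r = 0.916), *Phlpp1* (0.902), *Zfp943* (0.873), *Pigh* (0.856) and *Lats1* (0.845). These are the highest of 16999 genes over 11 samples, where high values can arise without a relation. The members themselves had r = 0.346 in that run, so their mean need not follow either of them. No gene was in both lists.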

How the data were processed

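GV oocyte RNA-seq of 22 samples was analysed. The authors mapped reads to GRCm38 with STAR 2.5.3a, kept multi-mapping reads, divided them between places and genes, and counted GENCODE M15 genes with featureCounts without strand. The values the authors deposited are estimated counts per gene, fractional where reads were divided, without normalization. The deposited gene length, the sum of exon bases, was used for RPKM and ratios. Counts were rounded, and each run was fitted on its own with edgeR 4.0.16 (R 4.3.3): TMM, filterByExpr (minimum count 10, minimum total 15), quasi-likelihood F test, prior count 0.125, adjusted p under 0.05. This left 20989 paired-end and 23151 single-end genes. *Dicer* dMT/WT was not fitted. CPM use TMM library sizes, and log2 CPM a prior count of 2. Squared differences between replicates of 1 genotype averaged 12.1 to 98.0 times the variance of counting error. Single values were compared with exact permutation tests, and the tests were first tried on simulated data.

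Of 52636 gene IDs, 52489 matched GENCODE M21 (GRCm38), whose transcripts were compared with blastn 2.17.0 (E value limit 1e-10). The exons of the pair are the same in both annotations. Named genes are the pair, the coding genes within 1 Mb that are nearest or called, other genes within 100 kb, the 5 genes per run most correlated with the pair, *Dicer1*, *Piwil2* and the most changed genes of the pathway lists. Members and lists were chosen with earlier results of these data known. Alternatives were DESeq2 1.42.0, library totals, no filter, a mean of 1 CPM, a prior count of 2, other call thresholds, no division by length, only the compared groups, a replicate block, an age term, younger animals only, other windows and each sample left out. The study's own methods use *rlog* values and the median log2 change among replicates, in place of the fits used here. The values by *Gm42418*, the age alternatives in controls, and the *Mdga2* and *Dcaf5* alternatives were added after seeing the data.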

Additional observations from a re-analysis of the deposited data

Results flagged for a closer look

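The single piRNA mutant entered no test between groups, and both genes stood above all 4 controls in it. *Gm17821* was at 72.5 CPM there, against at most 38.5 CPM in controls, and *Gm47432* at 133 CPM, against at most 96.1 CPM. With 1 library, these values have no replicate check. No sample stood apart from its group by the gap test applied to the groups of 4 samples for *Gm17821*, *Gm47432*, their ratio, *Mdga2* or *Dcaf5*.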

How the results depend on the processing

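The rise of both genes in double mutants kept its direction under every alternative run, and with younger animals only its log2 size against controls was 2.92 for *Gm17821* and 1.95 for *Gm47432*. Counting without division by length put the mean ratio of the pair at 0.811 in double mutants and 0.415 in controls. The lower *Gm47432* in *Dicer* SOM/SOM lost its call with library totals (−0.32) and with only the compared groups (−0.37), and ranged from −0.45 to −0.29 with each sample left out (adjusted p = 0.0312 to 0.132 by edgeR). Small differences of *Gm17821* changed sign: *Dicer* dMT/dMT against wild type was 0.0112 with library totals and −0.083 to 0.0784 with each sample left out, *Dicer* SOM/SOM against wild type −0.20 to 0.0044, *Dicer* SOM/SOM against *Dicer* dMT/dMT −0.18 to 0.0235, and older against younger double mutants −0.0068 to 0.57. The cause was not tested.

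With a window of 2 Mb, more coding genes were called, by construction from more genes. Of the 16 tested in the paired-end run, 4 were called for double mutants against controls (12.3% higher and 8.84% lower over all tested genes). For RNAi mutants against controls it was 3 (7.07% and 3.64%). Of the 17 tested in the single-end run, 2 were called for *Dicer* dMT/dMT against wild type (8.06% and 7.30%). For *Dicer* SOM/SOM it was 5 against wild type (14.5% and 14.2%) and 2 against *Dicer* dMT/dMT (4.03% and 3.32%). The median log2 change of coding genes was then −0.11 for double mutants and 0.029 for RNAi mutants against controls. Over all tested genes within 1 Mb, coding or not, the median for RNAi mutants against controls was −1.30. That is the value of *Gm47456* alone (edgeR adjusted p = 0.657), which averaged 0.176 CPM in RNAi mutants and 0.481 CPM in controls. It lay between *Mdga2* (−1.94) and *Rpl17-ps3* (−0.03), the only other genes tested there. With each sample left out, the count within 1 Mb, which is *Mdga2* alone, was 0 to 1 in RNAi mutants, *Dicer* dMT/dMT and *Dicer* SOM/SOM. *Mdga2* ranged from −0.20 to 0.49 between double and RNAi mutants and from −0.29 to 0.37 between *Dicer* SOM/SOM and *Dicer* dMT/dMT. *Dcaf5* in *Dicer* SOM/SOM was 0.0232 with library totals and −0.16 to 0.13 with each sample left out.

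Samples with the same replicate number did not deviate together (correlations −0.0691 to 0.177 in the paired-end run and −0.0253 to 0.0537 in the single-end run), so the numbers do not pair them. With the number as a replicate block, *Gm47432* in *Dicer* SOM/SOM was at −0.38 (edgeR adjusted p = 0.0668) and *Mdga2* between *Dicer* SOM/SOM and *Dicer* dMT/dMT at −0.0122, and the genes called between double and RNAi mutants went from 66 to 63. At the low counts of *Mdga2*, its interval was wide (−0.92 to 1.06 between double and RNAi mutants).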
